A study of Bos taurus with 6 samples.

Results

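Butyrate is known as an inhibitor of histone deacetylases (HDACs), though not necessarily of every class of them. The expression of the HDAC genes was followed here in cultured cattle rumen cells with and without butyrate. Which of the enzymes butyrate inhibited in these cells was not measured. The genes were chosen by name, as HDAC1 to HDAC8, HDAC10 and HDAC11, and each name occurs on 1 row of the gene tables, so that 10 of the 32183 listed genes were followed. All 10 had a mean FPKM (fragments scaled to transcript length in kilobases and to the number of mapped fragments of the library) of at least 0.1 over the 6 cultures and were tested, together with 15813 genes in all. HDAC9, the remaining classical HDAC, was not among them, and its FPKM lay between 0 and 0.0334 in the control cultures and between 0.0335 and 0.125 after butyrate, too low to be tested.

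Rumen epithelial primary cells (REPC), grown from the rumen lining of a single 2-week-old Holstein bull calf that had received milk replacer only, were sequenced as 3 control cultures and 3 cultures kept in 5 mM butyrate for 24 h. The study calls the 3 cultures of a group biological replicates, but all of them go back to 1 animal, so the p-values measure the spread between cultures and not between animals. The controls received no butyrate and no other agent is named for either group. The study describes the 2 groups as cells before and after 24 h of butyrate, and the labels give no time for the controls. A difference in time in culture, if there was one, therefore cannot be told apart from butyrate.

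HDACs remove acetyl groups from lysine residues of histones and of many other proteins, and the classical enzymes need a zinc ion for this. Class I enzymes (HDAC1, HDAC2, HDAC3 and HDAC8) are mostly nuclear, and the first 3 of them work inside corepressor complexes such as SIN3, NuRD, CoREST and NCoR/SMRT. Class IIa enzymes (HDAC4, HDAC5, HDAC7 and HDAC9) have little deacetylase activity of their own, bind MEF2 transcription factors and move between nucleus and cytoplasm when kinases phosphorylate them and 14-3-3 proteins hold them. Class IIb holds HDAC6, the cytoplasmic tubulin deacetylase, and HDAC10, which acts on acetylated polyamines, and HDAC11 is the only class IV enzyme. Butyrate is made in quantity by the microbes of the rumen. The comparison by class asks whether the messenger RNA of class IIa, IIb and IV genes moved differently from that of class I genes in cultures given butyrate.

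Pearson's r of log2(FPKM + 1) across all listed genes was between 0.9948 and 0.9955 for pairs of cultures from the same group and between 0.963 and 0.966 for pairs from different groups, so no culture stood apart from its group. FPKM summed to between 678035 and 681912 per control culture and to between 619401 and 629037 per butyrate culture. The tables hold no counts, so the depth behind a value is given here by the confidence bounds deposited with it. Of 8 epithelial markers, CDH1 and KRT5 were well expressed in both groups, whereas EPCAM was low, with mean FPKM of 0.540 in control and 3.33 after butyrate. TP63 had means of 8.06 and 10.5. Of the 8, 6 were higher after butyrate (KRT14 rose from a mean FPKM of 72.5 to 499.97) and KRT5 was lower. The summed FPKM of the list went from between 2417 and 2527 to between 5041 and 5123. Of 8 fibroblast markers, all 7 that could be tested were higher after butyrate (32.5% of all tested genes were). The sum of the list went from between 1924 and 1982 to between 2789 and 3038, led by COL1A1. Collagen genes made up most of it, with control means of 1149 for COL1A1, 459 for COL1A2 and 313 for COL3A1. LUM and PDGFRA were low in control, with means of 0.149 and 0.306 FPKM. The endothelial list stayed within 1.95 and 2.07 FPKM in the controls and reached 6.47 to 8.41 with butyrate, the leukocyte list went from a range of 5.12 to 7.15 to one of 7.23 to 9.38, with CDH5 and PTPRC listed at 0 in every culture. The part of these markers in the HDAC values below was not tested, and in bulk RNA fewer cells of a type and less RNA per cell cannot be told apart.

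In the control cultures the class I genes held the first 4 places in the order of FPKM, a unit that is divided by transcript length and so can be set side by side between genes. HDAC1 led with a mean FPKM of 80.2 ± 4.82 (SD, n = 3), higher than 90.5% of the tested genes. HDAC2 with 50.2 ± 2.36 and HDAC3 with 46.8 ± 4.62 (SD, n = 3) followed, and the ranges of these 2 overlapped. HDAC8 came next with 20.6 ± 2.62, ahead of HDAC5 with 15.5 ± 0.732 and HDAC6 with 14.7 ± 0.574 (SD, n = 3), whose ranges overlapped each other. HDAC7 with 11.5 ± 0.357, HDAC10 with 8.76 ± 1.18, HDAC11 with 2.99 ± 1.47 and HDAC4 with 0.246 ± 0.0888 (SD, n = 3) closed the order, each without overlap with the next. The family therefore spanned from HDAC4, with a mean higher than that of 14.2% of the tested genes, to HDAC1.

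After butyrate HDAC1 was still first with 78.4 ± 4.68 and HDAC4 still last with 0.575 ± 0.160 (SD, n = 3), and the middle of the order was rearranged. HDAC5 stood in place 4 with a mean FPKM of 44.0 ± 0.305 (SD, n = 3), below HDAC3 and HDAC2, which overlapped each other, and above all of the remaining genes without overlap. HDAC11 moved from place 9 to place 5 with 18.4 ± 2.52 (SD, n = 3), and its range overlapped those of HDAC6 and HDAC8, which also overlapped each other, so that places 5 to 7 were not separated. HDAC8 went from place 4 into this group, with the lowest mean of the 3, and HDAC7 from place 7 to place 9. The plot of FPKM by gene and class shows these shifts culture by culture.

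**Figure D1:**
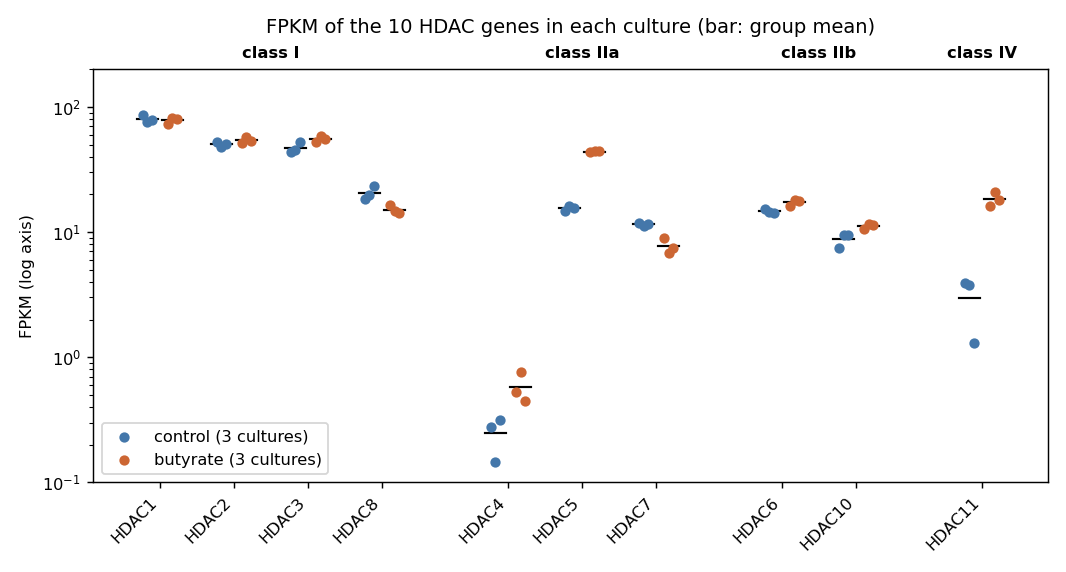
FPKM (log axis) of the 10 HDAC genes in each of the 3 control and 3 butyrate cultures, grouped by class, with a short bar at each group mean. HDAC5 went from a mean of 15.5 to 44.0 and HDAC11 from 2.99 to 18.4, while the points of HDAC1 and HDAC2 overlapped between groups.

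Among the class I genes, changes were small and did not share a direction: HDAC3 was slightly higher after butyrate, HDAC8 was lower, and HDAC1 and HDAC2 did not pass the test. HDAC1 (chromosome 2 from 122055987 to 122087845, positions on UMD3.1 here and below), the catalytic subunit shared with HDAC2 by SIN3, NuRD and CoREST, had FPKM of 85.6, 76.3 and 78.6 in the control cultures (replicates 1 to 3, as for every gene below) and of 73.0, 81.6 and 80.5 in those with butyrate. The 2 groups overlapped, and the log2 fold change of butyrate over control was -0.033 with a 95% interval from -0.18 to 0.12 (limma, Benjamini-Hochberg adjusted p = 0.691). The sign of this small value changed to 0.091 when each culture was rescaled to TPM, which gives every culture the same sum over genes, a step that raised the median log2 fold change of all tested genes by 0.12, and to 0.089 with quantile normalization.

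HDAC2 (chromosome 9 from 36918471 to 36953272) had FPKM of 52.7, 47.9 and 50.1 in the control cultures and of 51.1, 57.5 and 53.8 in the butyrate cultures. The groups overlapped, and the log2 fold change was 0.11 with a 95% interval from -0.041 to 0.25 (limma, adjusted p = 0.189). It passed the test at 0.23 after rescaling to TPM (adjusted p = 0.0137 from limma). With quantile normalization it passed at 0.18 (adjusted p = 0.0292 from limma). Against the median of all tested genes, 0.10, its change was 0.0026. That median was 0.0021 when only genes averaging 1 FPKM or more were kept, where HDAC2 stayed at 0.11. It was -0.045 with quantile normalization and 0.23 after rescaling to TPM. Whether HDAC2 moved with the background thus depended on the filter and the scaling.

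HDAC3 (chromosome 7 from 54439350 to 54466465), the enzyme of the NCoR/SMRT complex, had FPKM of 43.4, 44.9 and 52.1 in control and of 52.7, 58.5 and 55.9 after butyrate. The ranges did not meet, the closest pair of values being 52.1 and 52.7. The log2 fold change was 0.25 (SE 0.079) with a 95% interval from 0.073 to 0.44 (limma, adjusted p = 0.0228). The call was lost in fits without control replicate 1, control replicate 2, butyrate replicate 2 or butyrate replicate 3, with adjusted p from limma of 0.0824, 0.0757, 0.0809 and 0.0623.

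HDAC8 (chromosome X from 83228463 to 83475077), which acts outside these complexes, had FPKM of 18.4, 19.8 and 23.5 in control and of 16.4, 14.8 and 14.2 after butyrate. All butyrate values were below all control values. The mean fell from 20.6 to 15.1, and the log2 fold change was -0.44 (SE 0.11) with a 95% interval from -0.68 to -0.19 (limma, adjusted p = 0.00736). It stayed between -0.51 and -0.34 when a culture was left out, and its call was lost when genes of low FPKM were kept in the fit (adjusted p = 0.0574 from limma).

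The class IIa genes moved apart: HDAC5 rose 2.84-fold in mean FPKM, HDAC7 fell to 0.674 of its control mean, and HDAC4 stayed at a low level that was higher after butyrate. HDAC5 (chromosome 19 from 44538303 to 44575567), a MEF2 corepressor that kinases move out of the nucleus, had FPKM of 14.8, 16.2 and 15.4 in control and of 43.7, 44.1 and 44.3 after butyrate. The lowest butyrate value was far above the highest control value, and the cultures of a group lay close together. The log2 fold change was 1.502 (SE 0.064) with a 95% interval from 1.36 to 1.65 (limma, Benjamini-Hochberg adjusted p = 3.3e-07). It was called under each of the 15 other settings run, with a range from 1.47 to 1.54 when a culture was left out.

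HDAC7 (chromosome 5 from 32630717 to 32667499), also a MEF2 corepressor, had FPKM of 11.8, 11.1 and 11.6 in control and of 8.97, 6.83 and 7.46 after butyrate. The groups did not overlap, and the spread was wider after butyrate (SD 1.10) than in control (SD 0.357). The log2 fold change was -0.57 (SE 0.12) with a 95% interval from -0.84 to -0.31 (limma, adjusted p = 0.00278), and it was called under each of the 15 other settings. The HDAC7 row overlaps that of SLC48A1 by 34 bases, and SLC48A1 went the opposite way, from a mean FPKM of 4.02 to 20.2. As a result of the opposite courses, the ratio of HDAC5 to HDAC7 within a culture went from 1.35 ± 0.106 to 5.75 ± 0.810 (SD, n = 3). This ratio stays the same when all genes of a culture are scaled by 1 factor, as in rescaling to TPM. Quantile normalization can change it.

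HDAC4 (chromosome 3 from 118932557 to 119412942), with 480 kb the longest of the 10 genes on the genome, had FPKM of 0.278, 0.146 and 0.315 in control and of 0.522, 0.755 and 0.448 after butyrate. The groups did not overlap, but the deposited confidence bounds around these values were on either side between 32.6% and 85.2% of the value. The log2 fold change was 0.97 (SE 0.36) with a 95% interval from 0.16 to 1.79 (limma, adjusted p = 0.0438). Little weight rests on this call: it was lost with a pseudocount of 0.01, with quantile normalization (log2 fold change 0.19), with the replicate number as a block (adjusted p = 0.0837 from limma) and when any culture other than control replicate 3 was left out. Those 5 fits gave adjusted p from limma of 0.0646 and 0.121 without control replicates 1 and 2 and of 0.0774, 0.128 and 0.0512 without butyrate replicates 1 to 3.

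Both class IIb genes were slightly higher after butyrate. HDAC6 (chromosome X from 91994261 to 92013214), the deacetylase of tubulin and HSP90, had FPKM of 15.3, 14.5 and 14.2 in control and of 16.1, 17.9 and 17.8 after butyrate. The groups did not overlap, and the log2 fold change was 0.23 (SE 0.080) with a 95% interval from 0.050 to 0.42 (limma, adjusted p = 0.0337). The call was lost with the replicate number as a block (adjusted p = 0.0667 from limma). It was also lost without control replicate 2, control replicate 3, butyrate replicate 2 or butyrate replicate 3, with adjusted p from limma of 0.0850, 0.0924, 0.0904 and 0.0944.

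HDAC10 (chromosome 5 from 119814025 to 119819541), with 5.52 kb the shortest of the 10 genes on the genome, had FPKM of 7.40, 9.50 and 9.39 in control and of 10.6, 11.6 and 11.3 after butyrate. Control replicate 1 was the lowest culture, and the groups did not overlap. The log2 fold change was 0.35 (SE 0.12) with a 95% interval from 0.084 to 0.62 (limma, adjusted p = 0.0298). The call was lost without control replicate 1, butyrate replicate 2 or butyrate replicate 3, with adjusted p from limma of 0.0790, 0.0876 and 0.0789.

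HDAC11 (chromosome 22 from 59089634 to 59103701), the class IV enzyme, known for removing long fatty acyl groups from lysine, had the largest log2 fold change of the 10 genes. The control cultures had 3.91, 3.77 and 1.29 FPKM of it and the butyrate cultures 16.1, 21.1 and 18.02. All butyrate cultures lay well above all control cultures, and control replicate 3 was the lowest. The deposited confidence bounds of control replicate 3, from 0.237 to 2.35, overlapped those of control replicate 1, from 2.11 to 5.70, and control replicate 2, from 1.94 to 5.59, while the lowest bound among the butyrate cultures was 12.5. Mean FPKM rose 6.15-fold, and the log2 fold change was 2.72 (SE 0.37) with a 95% interval from 1.88 to 3.56 (limma, Benjamini-Hochberg adjusted p = 0.000253), larger than that of 96.2% of the tested genes. It was called under each of the 15 other settings, and its size was lowest, 2.22, without control replicate 3.

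**Figure D2:**
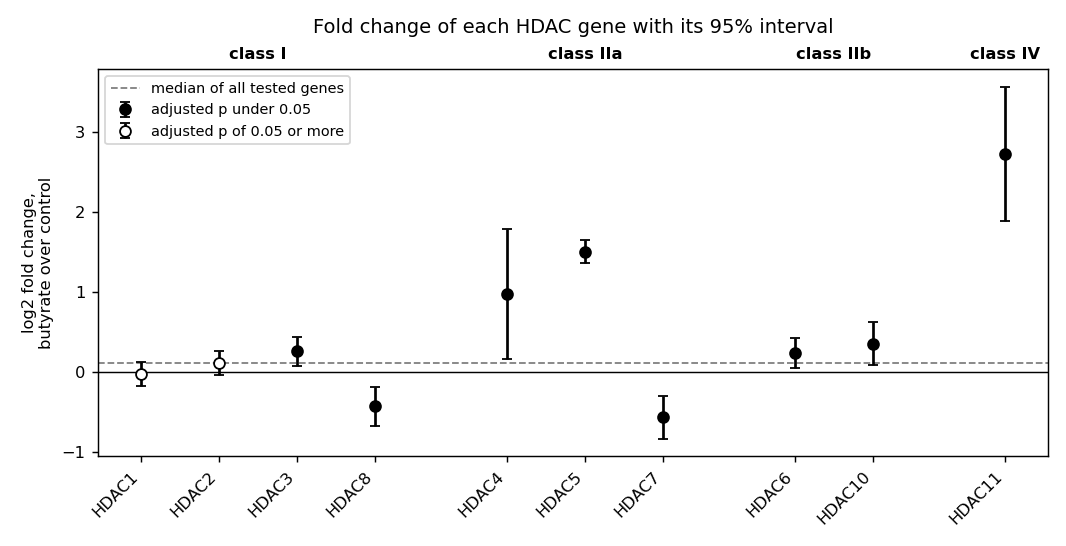
Log2 fold change of butyrate over control for each HDAC gene with its 95% interval from limma, filled where the adjusted p was under 0.05, with the median of all tested genes (0.10) as a dashed line. The intervals of HDAC1 and HDAC2 include 0, and those of HDAC8 and HDAC7 lie below it. Those of HDAC5 (1.502) and HDAC11 (2.72) lie highest. The median drawn as a line was 0.0021 when only genes averaging 1 FPKM or more were kept.

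By the test across all genes, 6 of the 10 HDACs rose (HDAC3, HDAC4, HDAC5, HDAC6, HDAC10 and HDAC11), 2 fell (HDAC7 and HDAC8) and 2 did not pass. A large part of the transcriptome differed between the groups, and 58.4% of the 15813 tested genes were called at the same threshold, 32.5% higher and 25.9% lower. This balance depended on the scaling: 5144 genes were called higher and 4091 lower, but 5924 and 3387 after rescaling to TPM and 4284 and 4679 with quantile normalization. A count of 8 of 10 is thus to be read against a background in which a call is the more common outcome, and it says little about the family; the sizes of the changes differ far more than the calls. The number of HDACs called higher was 3 without control replicate 1 or 2, 5 without control replicate 3 or butyrate replicate 1, and 2 (HDAC5 and HDAC11) without butyrate replicate 2 or 3, while 2 were called lower in each of these fits. The groups did not overlap in FPKM for 8 of the 10 HDACs, beside 65.0% of all tested genes. For each of these 8 an exact two-sided permutation test over the cultures gave p = 0.1, the smallest that 3 cultures against 3 allow, and it gave p = 0.7 for HDAC1 and p = 0.2 for HDAC2.

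Differentially expressed genes (DEGs) in the sense of the study had to pass a Bonferroni correction at 0.05 and to change by more than 2 on the log2 scale. The study applied this rule to tests made with Cufflinks, and its totals of DEGs differ from those of limma given here. A gene that fails the rule with limma may thus pass it in the study. With limma 3.97% of the tested genes passed both, 2.46% higher and 1.51% lower, and 0 of the 10 HDACs did, of which 8 had an unadjusted p under 0.05. HDAC5 met the condition on p (limma, Bonferroni adjusted p = 9.8e-05) but not that on size. HDAC11 met the condition on size but not that on p (limma, Bonferroni adjusted p = 0.935). Without control replicate 3, its lowest control culture, HDAC11 met both conditions (limma, log2 fold change 2.22, Bonferroni adjusted p = 0.00747), so its status under this rule was decided by 1 culture.

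Added up by class, the FPKM of class I genes differed little between the groups, and that of the other classes was higher after butyrate. These sums are given as a description without a test. The 4 class I genes summed to 200, 189 and 204 FPKM in the control cultures and to 193, 212 and 204 in the butyrate cultures, ranges that overlapped. The 3 class IIa genes summed to 26.9, 27.5 and 27.4 in control and to 53.2, 51.7 and 52.2 after butyrate, a ratio of 1.92 between the means. HDAC5 alone gained 28.5 FPKM, more than the 25.1 gained by its class, since HDAC7 fell by 3.75. The control sums of class IIb ranged from 22.7 to 24.0 FPKM and the butyrate sums from 26.7 to 29.5, a ratio of 1.21. All 10 genes together went from 251 ± 6.45 to 302 ± 12.8 FPKM (SD, n = 3), a gain of 51.0 FPKM, of which class I contributed 5.55 and class IV 15.4.

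Shares within a culture stay the same when all genes of a culture are scaled by 1 factor, though quantile normalization can change them. Class I made up 78.9%, 77.4% and 79.6% of the summed HDAC FPKM in the controls and 66.8%, 67.5% and 67.3% in the butyrate cultures, with a wide gap between the groups. The share of class IIa went from 10.8% ± 0.366 to 17.3% ± 0.994 and that of class IV from 1.195% ± 0.599 to 6.06% ± 0.580 (SD, n = 3). Class IIb kept a like share, 9.33% ± 0.442 in control and 9.40% ± 0.182 after butyrate (SD, n = 3), and its ranges overlapped. Within class I, the ratio of HDAC1 to HDAC2 went from 1.60 ± 0.0286 to 1.45 ± 0.0418 (SD, n = 3). That of HDAC3 to HDAC2 went from 0.934 ± 0.107 to 1.03 ± 0.0103 (SD, n = 3), with ranges that overlapped. Neither ratio was tested, and neither HDAC1 nor HDAC2 passed the test as a gene. FPKM describes messenger RNA, and neither protein nor enzyme activity was measured in these tables.

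**Figure D3:**
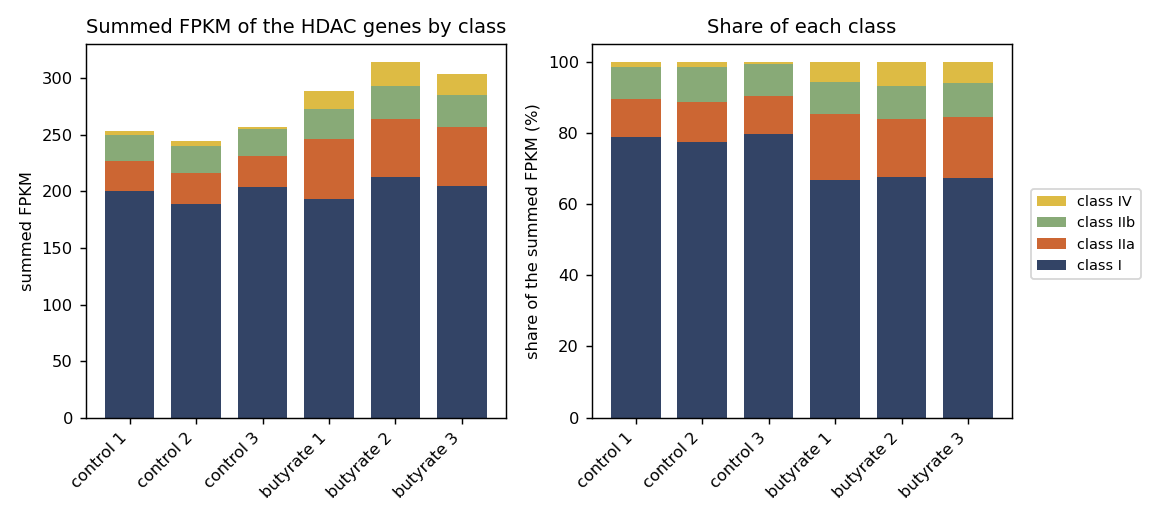
Stacked bars for each of the 6 cultures of the summed FPKM of the HDAC genes by class (left) and of the share of each class in that sum in percent (right). The class I block is of similar height in all cultures, between 189 and 212 FPKM, and its share is between 77.4% and 79.6% in control and between 66.8% and 67.5% after butyrate.

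The genes of the HDAC corepressor complexes and of the regulators of class IIa and IIb enzymes were read from lists written by hand, with 80 genes in all, of which 77 were tested. After butyrate 27 of them rose and 21 fell, which is 62.3% called, beside 58.4% over all tested genes. Their median log2 fold change was 0.097 beside 0.10. The median of all tested genes was 0.0021 when only those averaging 1 FPKM or more were kept, so the nearness of these 2 medians depends on the filter. The counts of each list below are to be read beside the 32.5% of all tested genes that rose and the 25.9% that fell, and nothing is claimed to be particular to a list. The plot of the partner lists gives each gene.

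Of 16 genes of the SIN3 complex, 7 fell and 1 rose, and the other 8 did not pass, beside 58.4% of all tested genes called. Their median log2 fold change was -0.15, and after rescaling to TPM 6 were called lower and 3 higher. RBBP7, a histone-binding protein that SIN3 shares with NuRD, fell from a mean FPKM of 393 ± 12.9 to 174 ± 7.24 (SD, n = 3; log2 fold change -1.17, limma adjusted p = 2.0e-07). ING1, which reads methylated histone H3, and FAM60A had log2 fold changes of -0.96 and -0.78, and the scaffold SIN3A was the gene that rose, by 0.35, a call lost without control replicate 1 or 3 or butyrate replicate 1 or 2. Of 13 NuRD genes, 7 fell and 3 rose, which is 76.9% called beside 58.4%, with a median of -0.19. The number called higher was 1 without a filter, without the trend, and without control replicate 2 or 3 or butyrate replicate 1 or 3. MBD3, a core subunit, fell from 17.2 ± 0.329 to 3.99 ± 2.13 FPKM (SD, n = 3; log2 fold change -2.21, adjusted p = 0.000342 from limma), and the helicase CHD3 fell from 5.07 ± 0.447 to 1.22 ± 0.121 FPKM (SD, n = 3; log2 fold change -1.97). CHD4, a related NuRD helicase, had means of 16.6 and 18.03 FPKM and did not pass the test. RBBP4 and RBBP7 are counted in both lists.

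Of 7 CoREST genes, 4 rose (beside 32.5% of all tested genes) and the other 3 did not pass, with a median of 0.58 (of these 3, RCOR1 had a log2 fold change of -0.22 and an adjusted p of 0.128 from limma). The lysine demethylase KDM1A rose from 46.6 ± 1.57 to 72.8 ± 1.90 FPKM (SD, n = 3; log2 fold change 0.64, adjusted p = 1.2e-05 from limma), and RCOR2 and PHF21A rose by 1.03 and 1.01 on the log2 scale from control means of 2.16 and 1.66 FPKM. A count of 1 CoREST gene called lower appeared without a filter, without the trend and with quantile normalization. Of 5 genes of the NCoR/SMRT complex, which holds HDAC3, 1 rose (GPS2, log2 fold change 0.34, a call lost without a filter, where limma gave an adjusted p of 0.0536) and the other 4 did not pass, with NCOR1 at 14.1 and 13.1 FPKM. Of 6 genes of the MiDAC and MIER complexes, 3 rose, with MIER1 at a log2 fold change of 0.84 and ELMSAN1 at 0.66, and 1 fell, DNTTIP1, at -0.61.

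Of 14 tested kinases that act on class IIa enzymes, 9 rose, beside 32.5% of all tested genes, and 1 fell (MARK2, log2 fold change -0.24, a call lost after rescaling to TPM, with quantile normalization and without control replicate 2 or 3 or butyrate replicate 3), with a median log2 fold change of 0.45. CAMK1D, a calcium/calmodulin-dependent kinase, rose from 3.55 ± 0.291 to 9.79 ± 0.389 FPKM (SD, n = 3; log2 fold change 1.44, adjusted p = 9.5e-06 from limma). CAMK2A and CAMK1G had larger log2 fold changes, 1.92 and 1.85, from control means of 0.219 and 0.0652 FPKM. With quantile normalization 5 kinases were called higher and CAMK1G was not (adjusted p = 0.0807 from limma). Of 10 tested MEF2 and 14-3-3 genes, 3 rose and 3 fell, which is 60.0% called beside 58.4%, and with quantile normalization 4 were called higher and 1 lower. The 14-3-3 gene SFN, typical of epithelia, rose from 84.9 ± 0.772 to 166 ± 0.494 FPKM (SD, n = 3; log2 fold change 0.97) and YWHAH fell from 230 ± 2.03 to 117 ± 4.17 FPKM (SD, n = 3; log2 fold change -0.97). MEF2D rose by 0.38 on the log2 scale, a call lost without a filter (adjusted p = 0.0555 from limma), MEF2A did not pass, and MEF2C was too low to be tested.

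Of 8 genes for substrates and partners of HDAC6, 3 rose and 4 fell, which is 87.5% called beside 58.4%. ATAT1, the acetyltransferase of tubulin, rose from 8.26 ± 1.34 to 13.8 ± 1.15 FPKM (SD, n = 3; log2 fold change 0.74). The chaperone HSP90AA1 and the segregase VCP fell by 0.85 and 0.89 on the log2 scale.

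**Figure D4:**
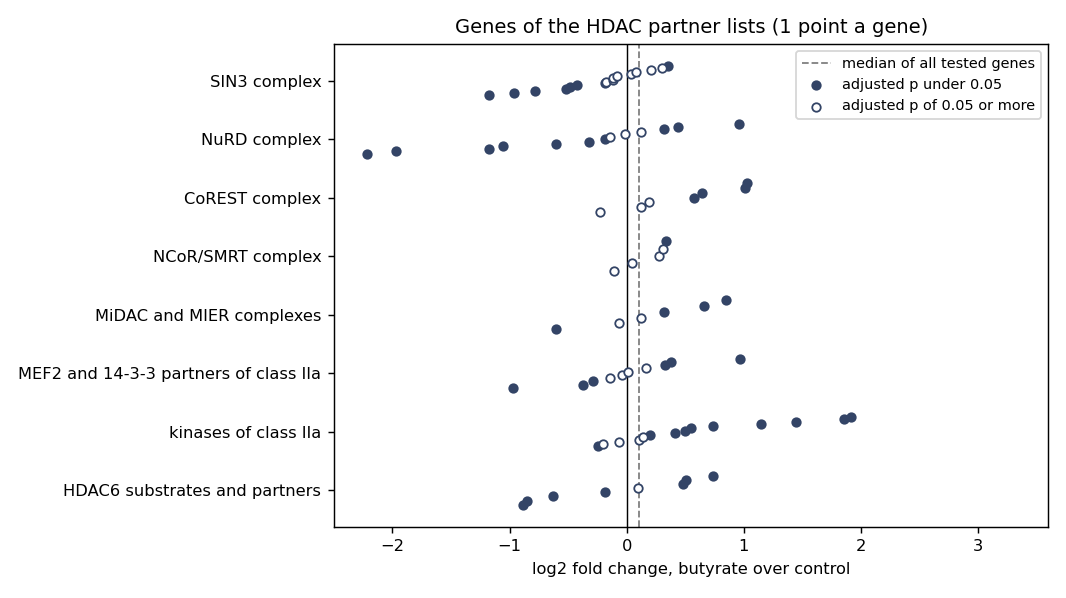
Log2 fold change of butyrate over control for each tested gene of the 8 HDAC partner lists, 1 point a gene, filled where the adjusted p was under 0.05, with the median of all tested genes as a dashed line. The 2 lowest points are MBD3 (-2.21) and CHD3 (-1.97) of NuRD and the 2 highest CAMK2A (1.92) and CAMK1G (1.85) among the kinases.

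The plot of the HDAC fold changes under every setting shows which of them depended on the processing. HDAC5, HDAC7 and HDAC11 were called in all 15 alternatives, HDAC8 in 14 and HDAC10 in 10. HDAC3 and HDAC6 were called in 9 each and HDAC4 in 5 of the 14 that tested it. HDAC2 was called in 2, both of them scalings, and HDAC1 was not called in any of the 15.

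**Figure D5:**
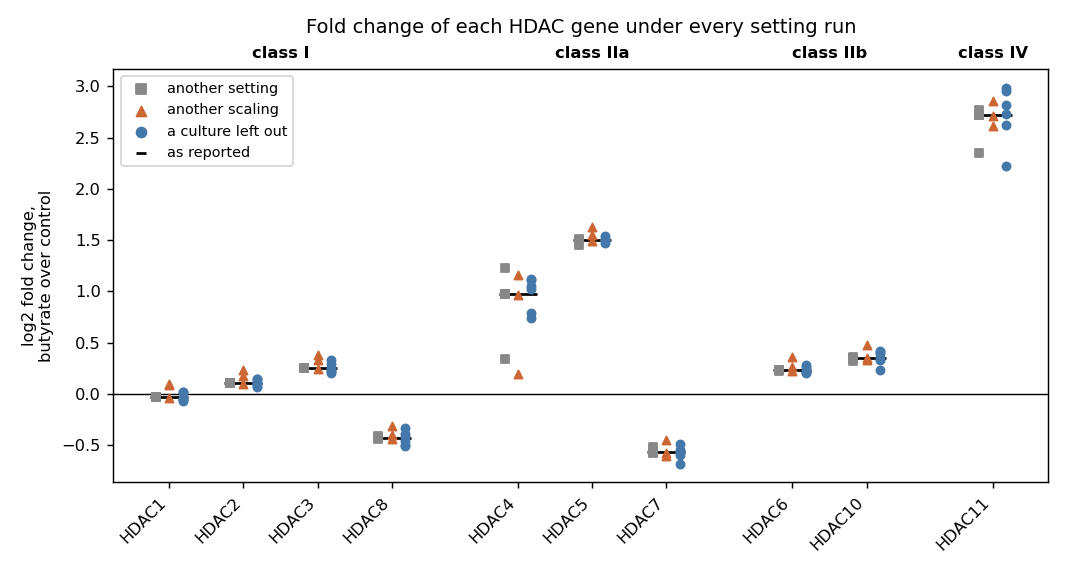
Log2 fold change of butyrate over control for each HDAC gene as reported (bar) and under other scalings, other settings and with 1 culture left out. HDAC5 stays near 1.502 and HDAC11 between 2.22 and 2.98, whereas HDAC4 reaches from 0.19 to 1.23 and HDAC1 lies on both sides of 0.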

How the data were processed

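RNA of 3 control and 3 butyrate REPC cultures was sequenced in pairs of reads. The authors trimmed reads with Trim Galore 0.4.1, mapped them with STAR, kept reads with a unique position and deposited FPKM values per gene from Cufflinks with a lower and an upper confidence bound; the build is UMD3.1 per the labels. Whether counting used strand is not given in the sources used here. File starts were raised by 1 to count from 1, and chromosomes follow the positions in the study's gene tables (831 of 833 matched genes lay on the assigned one). FPKM are no counts, so limma 3.58.1 (R 4.3.3; trend of variance on level) was fitted to log2(FPKM + 0.1) over the 15813 genes whose FPKM averaged 0.1 or more; this scale understates changes of low genes. The 2 genes with a failed estimate were left out. Calls used a Benjamini-Hochberg adjusted p under 0.05 over all tested genes. Permutation tests used scipy 1.17.1. The fit was tested on simulated data in which far fewer genes changed than were called here, so that test does not speak for data with such broad changes. The genes and lists were chosen with earlier results of these data known. Named partners are up to 3 called genes per list with the largest change; SIN3A, RCOR1, NCOR1, CHD4, MARK2, MEF2A, MEF2C and the cell type markers were named after their values were seen. Alternatives were other pseudocounts, filters and scalings, no trend, the replicate block and each culture left out.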

Additional observations from a re-analysis of the deposited data

How the results depend on the processing

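The directions of HDAC2 to HDAC8, HDAC10 and HDAC11 held under each alternative run; HDAC1 (-0.033), never called, was 0.091 rescaled to TPM and 0.089 with quantile normalization. HDAC2 gained its call there (0.23 and 0.18). Calls were lost for HDAC3 (0.25) without a filter and without the trend, for HDAC10 (0.35) in both, for HDAC6 (0.23) without the trend and with the replicate block, for HDAC8 (-0.44) without a filter, and for HDAC4 with a pseudocount of 0.01 (1.23), without a filter (0.97), with quantile normalization (0.19) and with the replicate block (0.97). The block changed no other HDAC call. Same-numbered cultures had correlations of deviations of 0.023, -0.0043 and 0.0018, and 1 of 3 numbers was matched best by itself. These values show no shared deviation of same-numbered cultures. They cannot tell whether such cultures were handled together, which the labels do not say. HDACs called higher went from 6 to 3 without a filter and to 3 without the trend, and those called lower from 2 to 1 without a filter. With a culture left out the ranges were -0.067 to 0.018 for HDAC1, 0.20 to 0.33 for HDAC3, 0.74 to 1.12 for HDAC4, 0.21 to 0.28 for HDAC6 and 0.24 to 0.41 for HDAC10, with 2 to 5 HDACs called higher; fewer cultures were then tested. By the DEG rule 389 genes rose and 238 fell in place of 5144 and 4091.

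Rescaling to TPM moved the log2 ratio of summed FPKM from 0.040 to 0.16 for class I, from 0.94 to 1.07 for class IIa, from 0.28 to 0.40 for class IIb, from 0.89 to 1.01 for class IIa, IIb and IV together and from 0.27 to 0.39 for all 10. The median of member log2 fold changes was 0.97 for class IIa and 0.66 for the 3 classes together. The first of these is the value of HDAC4 itself, and the second lies midway between HDAC10 and HDAC4. Both therefore rest on HDAC4, a gene of low FPKM whose log2 fold change was 0.19 with quantile normalization. By the lower confidence bound, 6 of 10 HDACs kept their place in the order of butyrate levels. HDAC4 was not tested where a mean FPKM of 1 was required. The wide confidence bounds of HDAC4 and of HDAC11 in control limit the precision of both changes.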

Other observations

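The 5 HDAC genes with another listed gene within 2 kb, apart from genes at or near 0, did not share a direction with it throughout. MARCKSL1, 188 bases from HDAC1, had mean FPKM of 64.8 in control and 66.4 after butyrate. G6PC3, 1862 bases from HDAC5, had 57.0 and 72.3 (limma, adjusted p = 0.00229), a smaller log2 fold change (0.34) than that of HDAC5. TUBGCP6, 210 bases from HDAC10, fell from 6.57 to 5.38 (limma, adjusted p = 0.0453), and MAPK12, 1892 bases from it, rose from 1.57 to 5.63 (limma, adjusted p = 0.000124). ERAS, 107 bases from HDAC6, had 0.273 and 0.436 and did not pass the test. These neighbours were looked up after the HDAC values were seen.

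Over the 6 cultures, the named genes whose log2(FPKM + 0.1) was most like that of HDAC11 by Pearson's r were RYR1 (r = 0.9995), PADI3 (r = 0.998) and CLIC3 (r = 0.998). Mean FPKM went from 0.0569 to 0.249 for RYR1, near the pseudocount of 0.1, from 0.311 to 5.25 for PADI3 and from 1.68 to 3.62 for CLIC3. Pearson's r does not measure the size of a change. The log2 fold changes were 1.19, 3.91 and 1.09, beside 2.72 for HDAC11. These are descriptions over 6 cultures in 2 groups, and 849 of 13219 named genes had an r of at least 0.95 with HDAC11.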
